A study of Homo sapiens with 6 samples.

Results

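The 7 genes described here encode secreted matricellular proteins: CCN1 and CCN2 of the CCN family, the thrombospondins THBS1 and THBS2, tenascin C (TNC), SPARC and osteopontin (SPP1). They were chosen by name as the rows of a 3′ mRNA-Seq count table whose Entrez identifier maps to these symbols, and they make up 7 of its 23459 genes. The table holds 6 libraries, all from MCF10A, a non-tumorigenic line of human breast epithelium grown with serum, insulin, hydrocortisone, cholera toxin and EGF. In 3 libraries the cells had received a non-targeting siRNA (siCtrl) and in 3 an siRNA against YAP and TAZ (siYAP/TAZ), both at 20 nM, with no other genetic change named in the labels. The time between transfection and harvest is not given in the sources used here. Each library reads the 3′ end of polyadenylated RNA, so counts do not grow with transcript length and levels of different genes can be compared in CPM, here the counts of a library divided by its TMM-scaled size.

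Matricellular proteins are secreted into the extracellular matrix but act mainly as signals: they bind integrins, proteoglycans and growth factors and alter how cells adhere, migrate and respond to injury. YAP and TAZ (the latter encoded by WWTR1) are coactivators that lack a DNA-binding domain of their own and reach DNA through TEAD factors, and CCN1 and CCN2 are among the genes most often used as a readout of that activity. The study deals with JUN, an AP-1 factor, as a restraint on YAP and TAZ at sites they share, and the libraries used here ask which transcripts depend on YAP and TAZ in the first place.

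The 250 bases before the annotated start are shown for CCN2, THBS1 and SPARC, which fell after depletion, and for TNC, which did not pass the test. They were picked by that outcome, so they do not test whether the letters go with the fall. THBS2, which was too low for the test and not lower after depletion, also held the TEAD letters. Its sequence and that of SPP1 are not shown. RefSeq promoter entries (GRCh38.p14) were matched for 6 of the 7 members, all but CCN1. In capitals are the letters CATTCC, the core bound by TEAD factors, or its reverse complement GGAATG, and the TATA letters TATAAA. Each sequence is written 5′ to 3′ on the strand of its gene, CCN2 from chr6:131951373-131951622 (minus), THBS1 from chr15:39580829-39581078 (plus), SPARC from chr5:151686916-151687165 (minus) and TNC from chr9:115118158-115118407 (minus).
CCN2: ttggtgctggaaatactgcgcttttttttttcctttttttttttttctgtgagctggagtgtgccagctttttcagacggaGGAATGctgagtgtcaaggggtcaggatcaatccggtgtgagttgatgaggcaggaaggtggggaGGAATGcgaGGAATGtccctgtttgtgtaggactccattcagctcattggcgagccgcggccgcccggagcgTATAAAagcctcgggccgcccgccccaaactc
THBS1: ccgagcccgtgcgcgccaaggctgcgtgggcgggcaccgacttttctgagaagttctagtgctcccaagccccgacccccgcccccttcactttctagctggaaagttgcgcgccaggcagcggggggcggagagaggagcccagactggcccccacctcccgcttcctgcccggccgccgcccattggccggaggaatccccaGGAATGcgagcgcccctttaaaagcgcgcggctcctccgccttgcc
SPARC: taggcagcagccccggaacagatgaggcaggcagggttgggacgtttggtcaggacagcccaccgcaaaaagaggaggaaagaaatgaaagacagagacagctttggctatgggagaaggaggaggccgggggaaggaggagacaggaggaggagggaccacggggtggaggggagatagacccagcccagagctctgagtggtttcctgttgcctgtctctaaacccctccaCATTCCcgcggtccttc
TNC: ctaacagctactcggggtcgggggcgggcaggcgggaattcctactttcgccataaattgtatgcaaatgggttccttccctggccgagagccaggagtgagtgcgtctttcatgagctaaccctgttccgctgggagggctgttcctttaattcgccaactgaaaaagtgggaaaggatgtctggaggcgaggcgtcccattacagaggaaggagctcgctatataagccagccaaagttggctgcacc

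The CCN2 window held the TEAD letters 3 times, starting at -169, -104 and -95 from the start, and the TATA letters at -32. THBS1 held them once, at -46, and SPARC once, at -17. In THBS2 the letters occurred at -103 and -91 with TATA letters at -29, whereas the TNC and SPP1 windows held none. The AP-1 letters TGACTCA and the CArG box bound by SRF were searched as well and were not in any of the 6 windows. All motifs were searched on both strands and no match overlapped another. Over all 35116 promoter windows of the same length, 11.9% held the TEAD letters, 10.7% the TATA letters, 4.20% the AP-1 letters and 1.16% a CArG box. These matches describe letters only, since no binding was measured here.

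**Figure D1:**
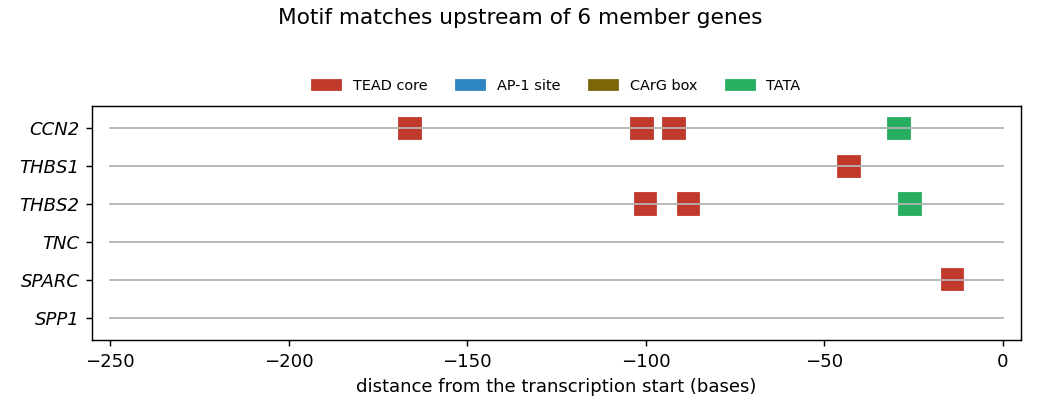
Matches to 4 motifs in the 250 bases before the annotated transcription start of the 6 members with a promoter entry. The horizontal axis is the distance from the start in bases, each grey line is a gene and each box a match. TEAD letters occur in CCN2, THBS1, THBS2 and SPARC, TATA letters in CCN2 and THBS2, and no AP-1 or CArG match is drawn because none was found.

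Library totals ranged from 3175149 to 4317286 counts. By counting error only, a count of 0 allows up to 3 counts, or 0.680 to 0.992 CPM depending on the library. The group labels conflict for 2 libraries. The names of the count columns, which were used for the groups, call them siCtrl replicate 2 and siYAP/TAZ replicate 2. Their titles and genotype labels name the opposite group. The titles also number siCtrl replicates 2 and 3 and siYAP/TAZ replicates 1 and 2 differently. The numbers of the column names were used throughout, so the replicate block and all pairs of libraries rest on them. The targeted genes go with the column names: YAP1 stood at 189, 204 and 210.3 CPM in siCtrl replicates 1, 2 and 3 and at 116, 118 and 112 CPM in siYAP/TAZ, and WWTR1 at 109, 109 and 102 against 70.5, 67.1 and 59.8 CPM. Both fell, to 57.5% and 61.8% of the siCtrl mean, with log2 fold changes of -0.80 (SE 0.12, edgeR adjusted p = 0.0138) and -0.69 (SE 0.13, edgeR adjusted p = 0.0311). With 1 library left out at a time both log2 fold changes stayed negative, but YAP1 lost its call in 3 of 6 fits (edgeR adjusted p of 0.0988 without siCtrl replicate 3 and of 0.0606 and 0.112 without siYAP/TAZ replicates 2 and 3). WWTR1 lost it in 5 of 6 (0.0928 and 0.135 without siCtrl replicates 1 and 3, and edgeR adjusted p of 0.0602, 0.107 and 0.176 without siYAP/TAZ replicates 1, 2 and 3). The summed level of 8 epithelial markers was 1391 to 1786 CPM in siCtrl and 1208 to 1377 CPM in siYAP/TAZ. Most of it was KRT5, at a mean of 912 against 661 CPM. None of the 8 passed an edgeR adjusted p of 0.05. With the replicate number as a block, KRT5 and EPCAM were lower and TP63 higher (edgeR adjusted p = 0.0230, 0.0364 and 0.0379). Of all genes tested, 5.44% were lower and 4.66% higher with that block. Of 8 fibroblast markers COL1A2, COL3A1 and THY1 were at 0 in every library, and their sum, 179 to 213 against 163 to 187 CPM, was mostly PDGFRA. Sums of 4 endothelial markers were 2.26 to 4.01 against 5.67 to 12.9 CPM, and of 4 leukocyte markers 1.44 to 5.25 against 1.36 to 3.97 CPM. The endothelial sum in siYAP/TAZ was mostly PECAM1, whose mean was 1.32 CPM in siCtrl and 5.88 CPM in siYAP/TAZ (edgeR adjusted p = 0.0785, or 0.0245 with the block). PECAM1 had 6, 4 and 4 siCtrl counts against 14, 29 and 18, so it passed the low-count filter through its siYAP/TAZ libraries alone. These p-values are therefore not evidence of a rise. The study's methods for RNA-Seq speak of biological replicates, but neither they nor the labels say whether the 3′ libraries of a group came from separate cultures, so p-values measure the spread between these libraries, which may be technical. In bulk RNA, fewer cells that express a gene and less of its RNA per cell cannot be told apart.

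After depletion of YAP and TAZ, CCN1, CCN2, THBS1 and SPARC fell, and TNC did not pass the test. THBS2 and SPP1 were too low for it. Thus 4 of the 5 members tested were lower and 0 higher at an adjusted p under 0.05 (edgeR quasi-likelihood test, Benjamini-Hochberg over 12510 genes), where 1.22% of all genes tested were lower and 0.743% higher. DESeq2 also called these 4 lower and 0 higher, where it called 333 genes lower and 254 higher in all. The groups did not overlap, with siCtrl higher, for the same 4 members, as for 11.1% of genes tested. With the replicate number as a block, 4 of 5 members were again lower, against a background of 5.44% of all genes tested, and 0 were higher, against 4.66%. The edgeR adjusted p with that block was 0.00022 for CCN1, 0.0017 for CCN2, 4.5e-05 for THBS1 and 0.0089 for SPARC. Fits that left out libraries had no block, so they did not pair the libraries. The median log2 fold change was -2.12 over the 5 members tested and -0.00093 over all genes tested. CCN2 passed the low-count filter through its siCtrl libraries alone, and it also passed the threshold in the fit without that filter (edgeR adjusted p = 0.0016). Leaving out both libraries with conflicting group labels left 4 of 5 members lower, whereas grouping by the titles gave 0 of 5 in edgeR, also at an unadjusted p under 0.05. All 4 are also on a list of YAP/TAZ targets that the study used elsewhere and named for siYAP/TAZ. Its source libraries are not stated and may be these, so it is not independent evidence.

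**Figure D2:**
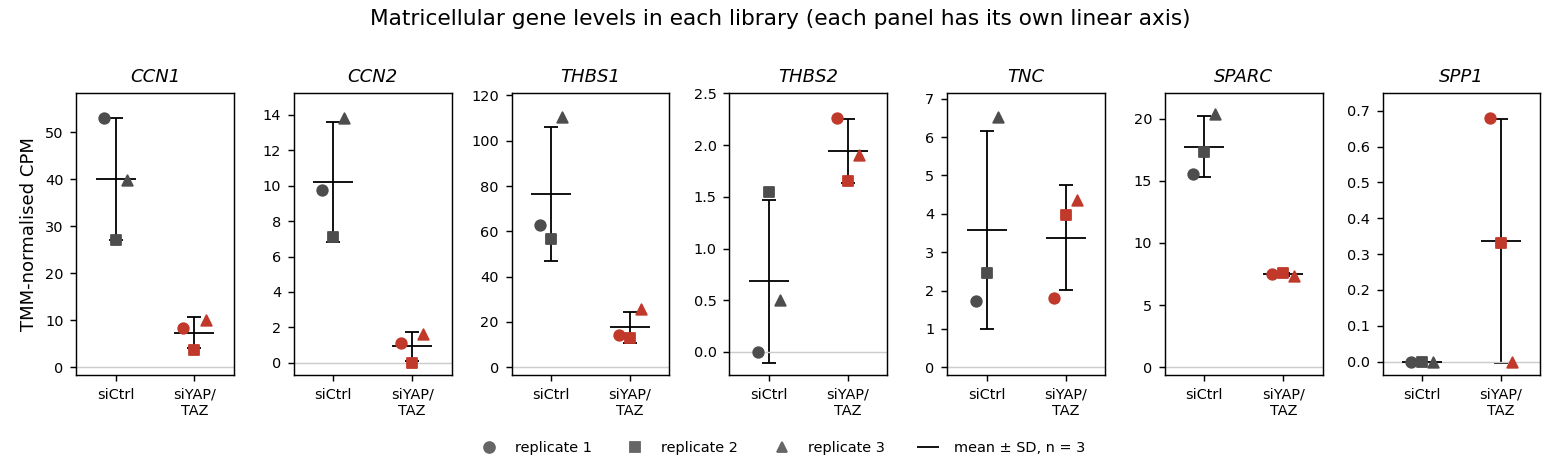
TMM-normalised CPM of the 7 members in each of the 6 libraries, 1 panel per gene with its own linear axis, with a symbol per replicate number, a horizontal line at the mean and bars of 1 SD (n = 3). The 3 siYAP/TAZ libraries lie below the 3 siCtrl libraries for CCN1, CCN2, THBS1 and SPARC, overlap them for TNC, and lie above them at 10 counts or fewer for THBS2.

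CCN1 (Entrez 3491; GRCh37 chr1:86046444-86050272, plus strand), formerly CYR61, is an integrin ligand that promotes adhesion and migration. Its level was 53.1, 27.2 and 39.96 CPM in siCtrl replicates 1, 2 and 3 against 8.39, 3.64 and 10.1 CPM in siYAP/TAZ, from 88 to 185 counts and 11 to 37 counts. Every siYAP/TAZ library was below every siCtrl library, and replicate 2 was the lowest of both groups. The mean fell from 40.1 ± 12.99 to 7.36 ± 3.33 CPM (SD, n = 3), a log2 fold change of -2.41 (SE 0.35, 95% interval -3.20 to -1.62, edgeR adjusted p = 0.0138). Within a replicate number, 15.8%, 13.4% and 25.2% of the siCtrl level was left. The call, but not the direction, was lost when siCtrl replicate 3 (edgeR adjusted p = 0.0803) or siYAP/TAZ replicate 3 (0.0705) was left out.

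CCN2 (Entrez 1490; GRCh37 chr6:132269316-132272512, minus strand), formerly CTGF, encodes connective tissue growth factor, which is best known for promoting matrix deposition in fibrosis. The siCtrl libraries held 34, 23 and 55 CCN2 counts against 5, 0 and 6 after depletion, or 9.76, 7.10 and 13.8 CPM against 1.13, 0 and 1.63 CPM. The groups were far apart, and siYAP/TAZ replicate 2 held no CCN2 count at all, which allows up to 0.992 CPM there. The mean went from 10.2 ± 3.39 to 0.922 ± 0.836 CPM (SD, n = 3), so 9.01% was left, the smallest share among the 4 members that fell. The log2 fold change was -3.35 (SE 0.57, 95% interval -4.63 to -2.07, edgeR adjusted p = 0.0225), and its wide interval goes with only 11 counts in all siYAP/TAZ libraries together. The edgeR adjusted p was 0.0602 or 0.132 when siCtrl replicate 1 or 3 was left out and 0.0597 or 0.108 when siYAP/TAZ replicate 1 or 3 was. The antisense transcript LINC01013 overlaps CCN2 and had 0 counts in every library.

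THBS1 (Entrez 7057; GRCh37 chr15:39873280-39891667, plus strand) encodes thrombospondin 1, which inhibits angiogenesis and activates latent TGF-β. It was the most abundant member in both groups, at 62.6, 56.5 and 110.3 CPM in the siCtrl libraries against 14.3, 12.9 and 25.6 CPM after depletion. The groups did not overlap, and replicate 3 was the highest of each. The mean fell from 76.5 ± 29.5 to 17.6 ± 6.95 CPM (SD, n = 3), with a log2 fold change of -2.12 (SE 0.32, 95% interval -2.85 to -1.39, edgeR adjusted p = 0.0157). Within a replicate number 22.8%, 22.8% and 23.2% of the siCtrl level was left, so the remaining share was nearly the same in the 3 pairs although the siCtrl levels themselves had a coefficient of variation of 38.5%. The edgeR adjusted p was 0.0728 when siCtrl replicate 3 was left out and 0.0611 when siYAP/TAZ replicate 2 was. The opposite-strand gene FSIP1, which overlaps THBS1, had 7 to 15 counts in siCtrl and 7 to 21 in siYAP/TAZ, against 183 to 439 and 39 to 94 for THBS1, and use of strand in counting is not stated.

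SPARC (Entrez 6678; GRCh37 chr5:151040657-151066536, minus strand) encodes osteonectin, a collagen-binding glycoprotein that opposes cell spreading. It stood at 15.5, 17.3 and 20.4 CPM in siCtrl but at 7.48, 7.60 and 7.34 CPM in siYAP/TAZ. The siYAP/TAZ values were closer together than those of any other member tested, and all were below the lowest siCtrl value. Their coefficient of variation was 1.74%, below the 19.0% that counting error alone gives at 23 to 33 counts. The mean fell from 17.7 ± 2.45 to 7.48 ± 0.130 CPM (SD, n = 3), leaving 42.2%, and the log2 fold change was -1.24 (SE 0.23, 95% interval -1.76 to -0.73, edgeR adjusted p = 0.0304). Within a replicate number 48.2%, 44.0% and 36.1% was left. SPARC kept its call only without siCtrl replicate 2, and without each of the other 5 libraries in turn the edgeR adjusted p was 0.0605, 0.154, 0.0767, 0.0986 and 0.162 (siCtrl replicates 1 and 3, then siYAP/TAZ replicates 1, 2 and 3).

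TNC (Entrez 3371; GRCh37 chr9:117781854-117880486, minus strand) encodes tenascin C, a large hexameric glycoprotein that modulates adhesion to fibronectin. The siCtrl libraries held 6, 8 and 26 TNC counts and the siYAP/TAZ libraries 8, 12 and 16, or 1.72, 2.47 and 6.53 CPM against 1.81, 3.97 and 4.35 CPM. The groups overlapped throughout, and siCtrl replicate 3 was the highest library. The log2 fold change was -0.15 (SE 0.55, 95% interval -1.38 to 1.09, edgeR adjusted p = 0.919), an interval that spans sizeable changes in both directions. Its sign turned when siCtrl replicate 3 (0.66) or siYAP/TAZ replicate 1 (0.19) was left out. The opposite-strand transcript DELEC1 overlaps TNC and had 2 to 6 counts, close to the lowest TNC counts, so the TNC values are uncertain.

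THBS2 (Entrez 7058; GRCh37 chr6:169615875-169654145, minus strand), the other angiogenesis-inhibiting thrombospondin, was near the limit of detection, with 0, 5 and 2 siCtrl counts against 10, 5 and 7 after depletion. In CPM this was 0, 1.54 and 0.503 against 2.27, 1.65 and 1.90, so the groups did not overlap in CPM, with siYAP/TAZ higher, although both replicates 2 held the same 5 counts. Among genes tested, 11.0% had groups that did not overlap in that direction. Without the low-count filter the log2 fold change was 1.52 (SE 0.76), with an unadjusted p of 0.0619 and an edgeR adjusted p of 0.391 over 19181 genes. SPP1 (Entrez 6696; GRCh37 chr4:88896819-88904684, plus strand), which encodes the phosphoprotein osteopontin of bone and of inflamed tissue, had 0 counts in each siCtrl library and 3, 1 and 0 in siYAP/TAZ. All SPP1 values are at or under the limit that a count of 0 allows, so no difference was detectable at this depth.

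In siCtrl the members stood, by mean CPM, in the order THBS1, CCN1, SPARC, CCN2, TNC, THBS2 and SPP1, and the ranges of neighbours were separate except for THBS2 and SPP1. In siYAP/TAZ the order became THBS1, SPARC, CCN1, TNC, THBS2, CCN2 and SPP1. There the ranges overlapped for SPARC and CCN1, for CCN1 and TNC, for TNC and THBS2 and for CCN2 and SPP1. THBS1 was still above every other member in every library. CCN2 stood below THBS2, but on 5, 0 and 6 against 10, 5 and 7 counts. The highest CCN2 value, 1.63 CPM, was next to the lowest THBS2 value, 1.65 CPM, which is too close to rank them at such counts. The 7 members together gave 142.7, 112.0 and 191.5 CPM in siCtrl against 36.0, 30.1 and 50.9 CPM in siYAP/TAZ, which is 149 ± 40.1 against 39.0 ± 10.7 CPM (SD, n = 3). THBS1 supplied 43.9% to 57.6% of that sum in siCtrl and 39.6% to 50.3% in siYAP/TAZ. CCN2 supplied 6.34% to 7.22% and 0% to 3.21%, and SPARC 10.6% to 15.4% and 14.4% to 25.3%.

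Whether members fell by different amounts was asked with the log2 ratio of 2 members within a library (0.5 CPM added to each), for all 10 pairs of the 5 members tested. With 3 libraries against 3 the two-sided exact permutation test cannot go below p = 0.10. CCN1 and CCN2 differed by 0.68 between groups in their ratio (exact p = 0.2, adjusted 0.222), with overlapping values. With 0.1 CPM added in place of 0.5 the difference was 1.56 and the groups were separate (exact p = 0.1). CCN1 and THBS1 differed by -0.33 (exact p = 0.6). The CCN2 to THBS1 ratio was lower in siYAP/TAZ by 1.02 on the log2 scale, with separate groups (exact p = 0.1, adjusted 0.167). It changed by -1.94 with 0.1 CPM added, and by -0.57 without siYAP/TAZ replicate 2, the library with no CCN2 count (exact p = 0.2). The CCN1 to SPARC and CCN2 to SPARC ratios changed by -1.24 and -1.93, both with separate groups and the smallest p this test allows (exact p = 0.1), and by -0.82 and -1.28 without siYAP/TAZ replicate 2 (exact p = 0.2). Against TNC the ratios of CCN1, CCN2 and THBS1 changed by -2.46, -3.15 and -2.13 with the same p (exact permutation, 0.1). The remaining pairs, THBS1 with SPARC and TNC with SPARC, changed by -0.91 and 1.22 with overlapping groups (exact p = 0.2). Taken within a replicate number, the change of the ratio had the same sign in all 3 pairs of libraries for 9 of the 10 pairs of members, CCN1 with THBS1 being the exception. Each of the 9 then had an exact sign-flip p of 0.25, the smallest that 3 pairs of libraries allow. With these exact tests none of the 10 pairs could pass an adjusted p of 0.05.

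**Figure D3:**
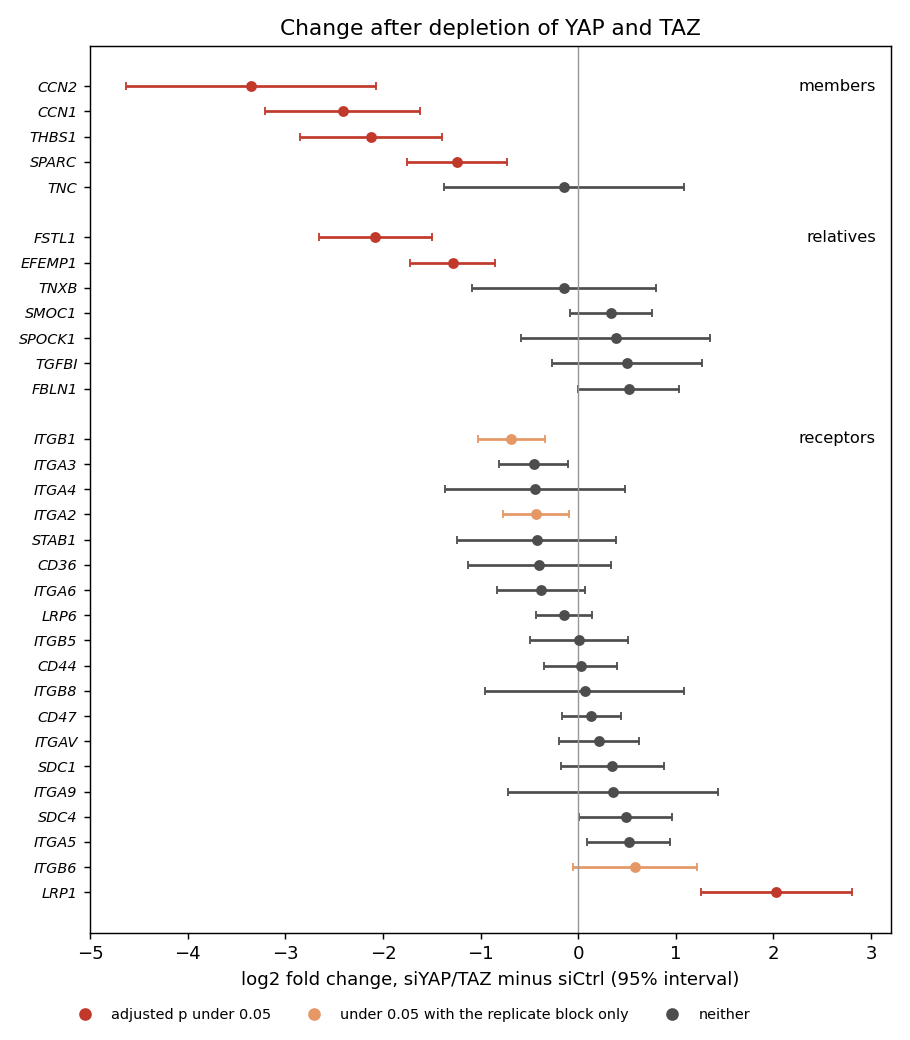
Log2 fold change, siYAP/TAZ minus siCtrl, with its 95% interval from edgeR for the members, matricellular relatives and cell-surface receptors that passed the low-count filter, 1 line per gene. Red marks an adjusted p under 0.05, orange a gene that passed only with the replicate block, and grey neither. CCN2, CCN1, THBS1 and SPARC lie left of 0 with FSTL1 and EFEMP1, and LRP1 lies to the right at 2.03.

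Of 30 further genes of these and related matricellular families, 7 passed the low-count filter, and 12 had at most 3 counts in every library. FSTL1 and EFEMP1 fell, so 2 of the 7 tested were lower and 0 higher in edgeR, where 1.22% of all genes tested were lower and 0.743% higher. At an unadjusted edgeR p under 0.05 the same 2 were lower and 0 higher. In either direction 2211 of all 12510 genes tested passed that cutoff. DESeq2 also called these 2 lower and 0 higher, where it called 333 genes lower and 254 higher in all. The median log2 fold change of the 7 relatives tested was 0.34. With the replicate block 2 were again lower and 0 higher, where 5.44% and 4.66% of all genes tested were. In that fit 5 of the 7 had an unadjusted p under 0.05, as had 3244 of all 12510 genes tested. Among the 5 were TGFBI, SMOC1 and FBLN1, which were higher (edgeR unadjusted p = 0.0142, 0.0116 and 0.0091). Their edgeR adjusted p with the block was 0.0931, 0.0826 and 0.0716. FSTL1, a follistatin-like protein with a SPARC-type calcium-binding domain, was at 103, 87.0 and 129.7 CPM in siCtrl against 21.3, 18.2 and 36.2 CPM in siYAP/TAZ (log2 fold change -2.08, SE 0.26, edgeR adjusted p = 0.0088). EFEMP1, the fibulin 3 gene, was at 85.3, 123 and 137 CPM against 41.2, 52.2 and 48.95 CPM (-1.28, SE 0.19, edgeR adjusted p = 0.0151). For both genes the groups were separate, as for the 4 members and for 11.1% of all genes tested. FSTL1 had an edgeR adjusted p of 0.0605 without siCtrl replicate 3, and EFEMP1 of 0.0925 without siCtrl replicate 3 and of 0.0505 or 0.108 with siYAP/TAZ replicate 2 or 3 left out. The other 5 tested (TGFBI, SMOC1, FBLN1, SPOCK1 and TNXB) had log2 fold changes from -0.14 to 0.52 and overlapping groups. TGFBI, a collagen-binding adhesion protein, was the most abundant of all 37 genes, at 697, 510 and 904 CPM against 1087, 498 and 1404 CPM (0.50, SE 0.34, edgeR adjusted p = 0.486). With TGFBI and SMOC1 included, the summed level of members and relatives was 1402 ± 283 CPM in siCtrl and 1532 ± 519 CPM in siYAP/TAZ (SD, n = 3). The 7 members made up 149 and 39.0 CPM of that sum, less than its SD in each group. A fall of that size could therefore not be seen in the sum of the wider family. CCN3, another secreted integrin ligand of the CCN family, did not pass the filter and had 9, 3 and 3 siCtrl counts against 24, 6 and 24 after depletion. Without the filter its log2 fold change was 1.72 (SE 0.56, edgeR adjusted p = 0.126).

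Among 22 integrin subunits and other surface partners of matricellular proteins, 19 were tested and 1 was higher in edgeR, while 0 were lower, against a background of 0.743% higher and 1.22% lower. Before adjustment 3 were higher and 3 lower at an edgeR p under 0.05, a cutoff that 2211 of all 12510 genes tested passed in either direction. DESeq2 called 1 receptor (ITGB1) lower and 1 higher, where it called 333 genes lower and 254 higher in all. LRP1, an endocytic receptor that binds THBS1 and CCN2, was at 4.31, 6.48 and 4.52 CPM in siCtrl against 12.5, 25.5 and 25.0 CPM in siYAP/TAZ. The groups were separate, and the log2 fold change was 2.03 (SE 0.34, edgeR adjusted p = 0.0221). The edgeR adjusted p for LRP1 was 0.0780 or 0.135 when siCtrl replicate 1 or 3 was left out and 0.0808 or 0.132 when siYAP/TAZ replicate 2 or 3 was. With the replicate block 2 of the 19 receptors were lower and 2 higher, where 5.44% and 4.66% of all genes tested were. ITGB1, the β1 integrin chain through which CCN1 and TNC are bound, stood at 327, 326 and 397 CPM against 199, 199.7 and 255 CPM, a log2 change of -0.68 (SE 0.15, edgeR adjusted p = 0.0560, or 0.0029 with the block). ITGA2 (-0.43, edgeR adjusted p = 0.182, or 0.0392 with the block) and ITGB6 (0.58, 0.318 or 0.0308) were the others. The hyaluronan and osteopontin receptor CD44 had a log2 fold change of 0.02, and the median over the 19 was 0.024.

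Genes whose profile over the 6 libraries was nearest to each member were found by the mean absolute difference of centred log2 CPM, among genes with a mean of at least 10 CPM. The nearest to THBS1 were COL12A1 (0.106), FSTL1 (0.116) and FLI1 (0.255), so a step of about that size per library separated them from THBS1. The nearest to SPARC were AJUBA (0.0678), PRR11 (0.0961) and LIMCH1 (0.110), all closer than any gene was to the other members except THBS1. For CCN1 they were CDH4 (0.283), AREG (0.308) and FSTL1 (0.313), and for CCN2 they were CCN1 (0.385), CCBE1 (0.409) and CDH4 (0.487). TNC was nearest to PDPN (0.212), PJA1 (0.236) and KCNS3 (0.252). The 6 libraries share 2 groups, so these distances mostly compare the size of the change between them. FAP, a surface protease counted among the fibroblast markers, stood at 19.2, 18.5 and 55.8 CPM in siCtrl but 5.44, 3.31 and 13.1 CPM in siYAP/TAZ, with the highest value in siCtrl replicate 3 as for CCN2, THBS1, TNC and SPARC. The log2 fold change of FAP was -2.09 (SE 0.55, edgeR adjusted p = 0.0875, or 0.00054 with the block). PDGFRA, the other fibroblast marker tested, did not fall, with means of 161 CPM in siCtrl and 167 CPM in siYAP/TAZ. Its log2 fold change was 0.05 (SE 0.13, edgeR adjusted p = 0.871). The part of FAP in the values of CCN2, THBS1, TNC and SPARC was not tested.

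**Figure D4:**
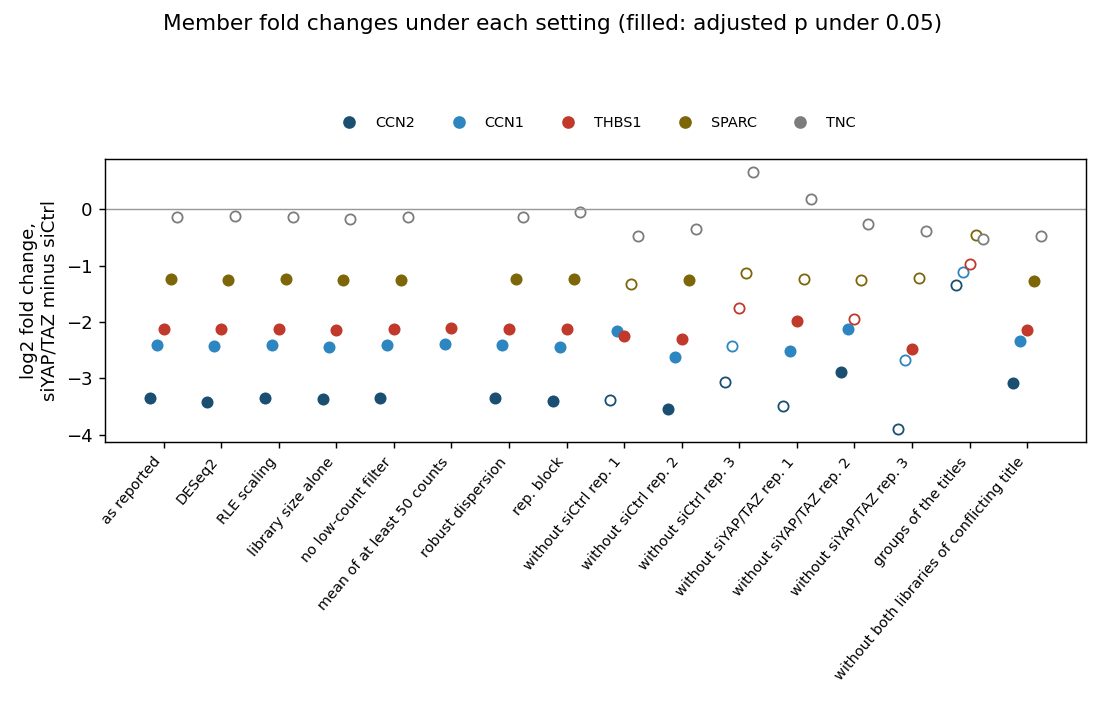
Log2 fold change of the 5 members tested under the reported fit and each alternative, 1 colour per gene, with filled symbols where the adjusted p was under 0.05. CCN1, CCN2, THBS1 and SPARC stay below 0 in every fit shown, their symbols are often open when a library is left out, and TNC crosses 0 when siCtrl replicate 3 or siYAP/TAZ replicate 1 is missing.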

How the data were processed

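The deposited values are raw counts per Entrez gene, 1 table for 6 libraries, which the authors made from QuantSeq 3′ mRNA-Seq (FWD) reads. The submitters' processing notes name cutadapt 4.2, Bowtie2 2.3.5.1 and hg19; the gene annotation and use of strand are not given in the sources used here. All value columns were used. Symbols came from RefSeq (23308 IDs matched, 99.7% of counts) and gene coordinates from GENCODE lifted to GRCh37, the coordinates of hg19. Groups and replicate numbers were taken from the description field.

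The test across genes was edgeR's quasi-likelihood test (version 4.0.16 in R 4.3.3) on counts, after TMM scaling and the package's own filter on low counts, with no term but the group. P-values were adjusted by Benjamini-Hochberg for the 12510 genes that were left. Standard errors come from the fold change and its F statistic. The test was tried on simulated counts with known changes, and no result of that trial is used here. The simulated libraries were not paired, and only genes with higher counts than CCN2 and TNC were changed. Within groups, chi-square per degree of freedom was 5.37 to 17.4, so no library repeated another. Same-numbered libraries of both groups deviated together from their group means across genes (r = 0.41, 0.34 and 0.13). The numbers in the descriptions, from which some titles differ, were therefore taken to pair the libraries.

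The fits tried beside it used DESeq2 1.42.0, RLE factors or no factors, a filter at a mean of 50 counts or none, robust dispersion, the replicate block, each library left out, the titles' groups, and both conflicting libraries left out; 0.1 CPM replaced 0.5 CPM in the ratios. Named were all members, the relatives and receptors past the threshold with or without the block, and the 3 nearest profiles per member; CCN3, TGFBI, SMOC1, CD44, FAP and the remaining tested relatives were named after their values were seen. The members and lists were chosen with earlier results of these data known.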

Additional observations from a re-analysis of the deposited data

How the results depend on the processing

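In edgeR 4 of the 5 members had an adjusted p under 0.05, as they did with DESeq2, both other scalings, no filter, robust dispersion, the replicate block and without both conflicting libraries. With a mean of at least 50 counts 2 passed, CCN2 and SPARC being below that filter, and with 1 library left out 0 to 4 did. The count of 0, without siCtrl replicate 3, stood beside 4 members, 2 relatives and 4 receptors at an unadjusted p under 0.05. Over all genes 1438 passed that unadjusted cutoff in the same fit. For the relatives (2 reported) the range with 1 library left out was 0 to 2, and for the receptors (1 reported) 0 to 5. Over all genes 245 passed as reported, and 16 to 1579 with 1 library left out. The cause of these shifts was not tested, beyond there being fewer libraries.

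DESeq2 called 2 receptors and 587 genes, no filter 2 and 556, robust dispersion 2 receptors, the mean of 50 counts 0 receptors (LRP1 falls below it), the replicate block 4 receptors and 1263 genes, and the fit without the conflicting libraries 3 and 1183. By the titles 0 members, 0 relatives, 0 receptors and 0 genes passed in edgeR, and 464 genes had an unadjusted p under 0.05. The replicate block changed no call of a member or relative. With 1 library left out TNC ranged from -0.47 to 0.66, being above 0 when siCtrl replicate 3 (0.66) or siYAP/TAZ replicate 1 (0.19) was missing, and the change of the CCN1 to THBS1 ratio ranged from -0.61 to 0.0042, the latter without siCtrl replicate 1. Without both conflicting libraries the changes of the CCN1 to CCN2, CCN1 to THBS1 and CCN2 to THBS1 ratios were 0.43, -0.17 and -0.61. CCN1, CCN2, THBS1 and SPARC were negative under every alternative that gave them a value, from -2.68 to -1.11, -3.90 to -1.34, -2.49 to -0.97 and -1.33 to -0.47, the smallest falls being by the titles. Low counts limit THBS2, SPP1 and, in siYAP/TAZ, CCN2 (11 counts in all).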

Other observations

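Among relatives below the low-count filter, POSTN (periostin) had 0, 0 and 20 siCtrl counts against 2, 0 and 5 after depletion, so its siCtrl sum came from replicate 3, the library that was also highest for CCN2, THBS1, TNC and SPARC. THBS3 had 5, 6 and 4 counts against 13, 8 and 11, higher in 3 of 3 siYAP/TAZ libraries, where 11.0% of genes tested had separate groups in that direction. Without the filter its log2 fold change was 1.00 (SE 0.52, edgeR adjusted p = 0.408). THBS4 went the other way at 3, 2 and 3 counts against 2, 1 and 0, with separate groups in CPM, as for 11.1% of genes tested. Its log2 fold change without the filter was -1.37 (SE 1.01, edgeR adjusted p = 0.612). FBLN5 had 1, 4 and 3 counts against 3, 6 and 13. These genes were named after their values were seen.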
